A study of Mus musculus with 10 samples.

Results

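The enzymes that make serine and those that move folate-bound one-carbon units were followed in fetal mouse testes in which glycogen breakdown had been inhibited. The 10 genes were taken by symbol from the count table, which holds 24470 gene entries: Phgdh, Psat1 and Psph of serine synthesis, Shmt1, Mthfd1 and Aldh1l1 of the cytosol, and Shmt2, Mthfd2, Mthfd1l and Aldh1l2 of mitochondria. Each of the 10 symbols was found once, and each gene passed the filter on low counts. Gonads with the mesonephros attached were taken from 5 male C57BL/6 embryos at E12.5. For 48 h of culture, 1 gonad of each embryo received GPI, an inhibitor of glycogen phosphorylase, at 75 µM, and the opposite gonad received the DMSO vehicle. The gonads were then separated from the mesonephros, and RNA of the whole gonad, with all its cell types, was sequenced. The embryos, called mice M1 to M5 here, thus gave 5 vehicle-treated and 5 GPI-treated testes. The values are therefore mixtures over cell types.

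Serine is made from an intermediate of glycolysis, and its conversion to glycine loads a one-carbon unit onto tetrahydrofolate. Parallel sets of enzymes handle that unit in mitochondria and in the cytosol: mitochondria largely oxidize it to formate, and the cytosol uses the formate for purines, thymidylate and methyl groups. Many of these genes are known targets of ATF4, a transcription factor of the response to amino acid shortage and mitochondrial stress, and dividing fetal tissue is known for a high demand for one-carbon units.

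The libraries of mice M1 to M5 held 11114376, 10203679, 10835341, 12220168 and 15590223 counts with vehicle and 11025409, 15635322, 13639929, 11691690 and 11468668 with GPI. Values called normalized counts are counts scaled by the TMM method to a common library of 12320317 counts. Differences were tested by edgeR's quasi-likelihood test with the mouse as a block, and a gene was called at a Benjamini-Hochberg adjusted p under 0.05 over all 13941 genes tested. Log2 fold changes are GPI over vehicle, with their standard errors (SE), so that a positive value is a higher level with GPI.

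Of the 10 enzymes, 7 were higher with GPI and 1, Mthfd1l, was lower; the number lower was 0 without mouse M2, M3 or M5. Among all tested genes 22.9% were called, 11.1% higher and 11.9% lower, that is 1544 and 1654 of 3198 called genes; without mouse M3 the number called higher was 969, and without mouse M4 it was 1024. The balance of directions moved with the scaling: with total counts in place of TMM, 1238 genes were called higher and 1972 lower by edgeR, and the enzymes called were 7 higher and 1 lower. The enzymes not called were Shmt1 and Mthfd1, both of the cytosol. In 6 of the 10 genes every GPI-treated testis lay above every vehicle-treated testis, as in 7.07% of all tested genes. In none of them did every GPI-treated testis lie below, as in 9.05% of all tested genes. The median log2 fold change was 0.79 over the 10 enzymes and 0.02 over all tested genes. By DESeq2 and by limma-voom the counts were also 7 higher and 1 lower. In whole gonads, fewer cells of a type and less RNA per cell cannot be told apart.

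**Figure D1:**
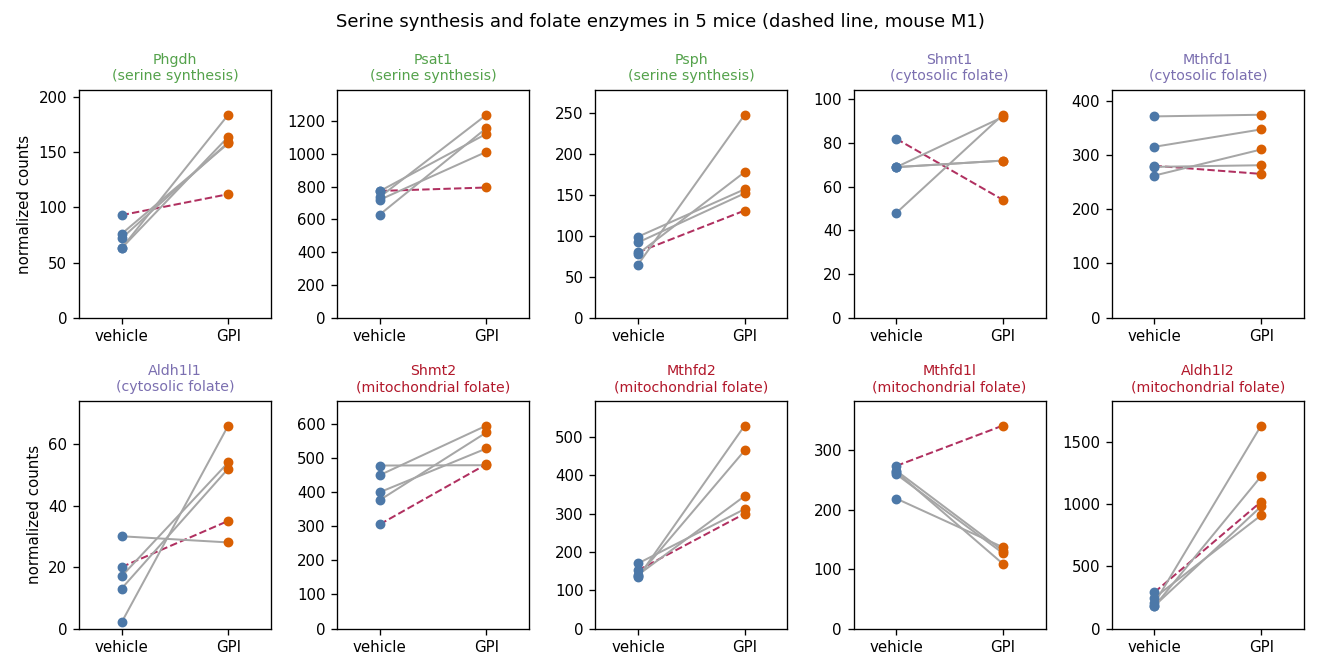
Normalized counts (vertical axis) of the 10 enzymes in vehicle-treated (blue) and GPI-treated (orange) testes, 1 panel per gene, each line joining both gonads of 1 mouse and the dashed line marking mouse M1. Aldh1l2 and Mthfd2 lie apart in all 5 mice, and Mthfd1l falls in mice M2 to M5 and is higher with GPI in M1.

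Phgdh (Entrez Gene 236539, mm10 chr3:98313171-98339969) encodes phosphoglycerate dehydrogenase, which takes 3-phosphoglycerate out of glycolysis in the first step of serine synthesis. In mice M1 to M5 its normalized counts were 93, 72, 63, 63 and 76 with vehicle and 112, 159, 184, 164 and 158 with GPI. The groups did not overlap, and mouse M1 had both the highest vehicle value and the lowest GPI value. Phgdh rose by a log2 fold change of 1.08 (SE 0.20, edgeR adjusted p = 0.00111), with a higher level in 5 of 5 mice.

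Psat1 (Entrez Gene 107272, chr19:15905123-15925059), the aminotransferase that adds nitrogen from glutamate, had 774, 630, 773, 737 and 720 normalized counts with vehicle and 795, 1158, 1123, 1239 and 1013 with GPI. All GPI values were above the vehicle values, but in mouse M1 the gonads were close, with a log2 ratio of 0.04 against 0.49 to 0.88 in the other mice. The log2 fold change was 0.54 (SE 0.11, edgeR adjusted p = 0.00241; higher in 5 of 5 mice). Psph (Entrez Gene 100678, chr5:129765558-129787253), the phosphatase that releases serine in the last step, had 80, 78, 92, 65 and 99 normalized counts with vehicle and 131, 178, 152, 248 and 157 with GPI. No value was shared between the groups, and the GPI-treated testis of mouse M4 was the highest. Its log2 fold change was 1.04 (SE 0.20, edgeR adjusted p = 0.00159; higher in 5 of 5 mice). Thus 3 of 3 genes of serine synthesis rose, with the lowest fold for Psat1, the one with the highest level per length.

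Among the mitochondrial enzymes, Aldh1l2 (Entrez Gene 216188, chr10:83487447-83534140) had the highest fold change of all 10. It encodes the mitochondrial 10-formyltetrahydrofolate dehydrogenase, which oxidizes the one-carbon unit to carbon dioxide and yields NADPH. Its normalized counts in mice M1 to M5 were 292, 183, 204, 180 and 248 with vehicle and 1021, 983, 1634, 1226 and 912 with GPI. The lowest GPI value was well above the highest vehicle value, and mouse M3 had the highest. The log2 fold change was 2.37 (SE 0.16, edgeR adjusted p = 2.24e-07), a 5.15-fold rise with a 95% interval of 4.06 to 6.54, in 5 of 5 mice. Ordered from the highest log2 fold change down, Aldh1l2 took place 33 among the 13941 genes, Aldh1l1 place 107 and Mthfd2 place 160.

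Mthfd2 (Entrez Gene 17768, chr6:83305704-83317604) encodes the mitochondrial methylenetetrahydrofolate dehydrogenase and cyclohydrolase, which is abundant in embryonic and transformed cells and low in most adult tissues. It had 152, 140, 137, 134 and 170 normalized counts with vehicle and 300, 346, 465, 530 and 312 with GPI. The vehicle values lay in a narrow range and every GPI value was above it, with mice M3 and M4 the highest. The log2 fold change was 1.38 (SE 0.16, edgeR adjusted p = 3.03e-05; higher in 5 of 5 mice), a 2.60-fold rise.

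Shmt2 (Entrez Gene 108037, chr10:127517123-127522444), the mitochondrial serine hydroxymethyltransferase that feeds the pathway, changed less. It had 305, 477, 449, 376 and 399 normalized counts with vehicle and 481, 478, 594, 574 and 527 with GPI. The groups did not overlap, but only just: in mouse M2 both gonads had nearly the same value. The log2 fold change was 0.41 (SE 0.11, edgeR adjusted p = 0.0136; higher in 5 of 5 mice). The call was lost without mouse M1 (0.34, adjusted p = 0.0519), without M3 (0.40, adjusted p = 0.0596) and without M4 (0.36, adjusted p = 0.0698), all by the same edgeR test, whose adjusted p ran from 0.00328 to 0.0698 over the alternatives. Shmt2 overlaps Ndufa4l2 on the other strand. Counting ignored the strand, and reads of the shared stretch cannot be assigned to either gene. That stretch, chr10:127517123-127517154, is a small part of the 2305 bases of Shmt2 exons. Ndufa4l2, named for this overlap, had 233, 172, 119, 203 and 219 normalized counts with vehicle and 273, 14, 11, 4 and 17 with GPI, lower with GPI in mice M2 to M5 (log2 fold change -2.80, edgeR adjusted p = 0.00274).

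Mthfd1l (Entrez Gene 270685, chr10:3973075-4167081) was the exception. It encodes the mitochondrial formyltetrahydrofolate synthetase, which releases formate for export to the cytosol, the step after Mthfd2. Its normalized counts were 274, 266, 264, 219 and 260 with vehicle and 342, 131, 109, 137 and 127 with GPI. In mice M2 to M5 every GPI-treated testis was below every vehicle-treated testis, whereas the GPI-treated testis of mouse M1 had the highest value of all 10. The log2 fold change was -0.72 (SE 0.20, edgeR adjusted p = 0.0162), with a lower level in 4 of 5 mice. The size and the call depended on single mice: without M1 the log2 fold change was -1.02 (adjusted p = 0.000175), and the call was lost without M2 (-0.64, adjusted p = 0.069), M3 (-0.61, adjusted p = 0.0764) or M5 (-0.65, adjusted p = 0.0678). Without the mouse as a replicate block it was -0.61 (edgeR adjusted p = 0.1), the highest adjusted p among the alternatives, of which the lowest was that without M1.

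The cytosolic enzymes differed from each other. Mthfd1 (Entrez Gene 108156, chr12:76255232-76319820), the trifunctional enzyme that interconverts the folate forms used for purines and thymidylate, had 280, 371, 315, 262 and 278 normalized counts with vehicle and 265, 374, 347, 310 and 281 with GPI. The groups covered nearly the same range. Its log2 fold change of 0.07 (95% interval -0.16 to 0.29, edgeR adjusted p = 0.713) had an interval on both sides of 0. Shmt1 (Entrez Gene 20425, chr11:60788897-60811265), the cytosolic serine hydroxymethyltransferase, had 82, 69, 48, 69 and 69 normalized counts with vehicle and 54, 72, 93, 72 and 92 with GPI. The values overlapped, mouse M1 went down and M3 up, and the log2 fold change was 0.18 (95% interval -0.32 to 0.68, edgeR adjusted p = 0.646). Without mouse M3 it was -0.03.

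Aldh1l1 (Entrez Gene 107747, chr6:90550848-90599171), the cytosolic counterpart of Aldh1l2, was the least abundant of the 10 genes. It had 20, 30, 13, 2 and 17 normalized counts with vehicle and 35, 28, 52, 66 and 54 with GPI. The groups overlapped through mouse M2, and the vehicle-treated testis of mouse M4 was close to 0. The log2 fold change was 1.60 (95% interval 0.50 to 2.69, edgeR adjusted p = 0.0363; higher in 4 of 5 mice). At these counts the size was poorly fixed: the call was lost without mouse M3 (1.49, adjusted p = 0.124), M4 (1.09, adjusted p = 0.103) or M5 (1.57, adjusted p = 0.102), and the edgeR, DESeq2 and limma adjusted p ran from 0.00527 to 0.124 over the alternatives.

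**Figure D2:**
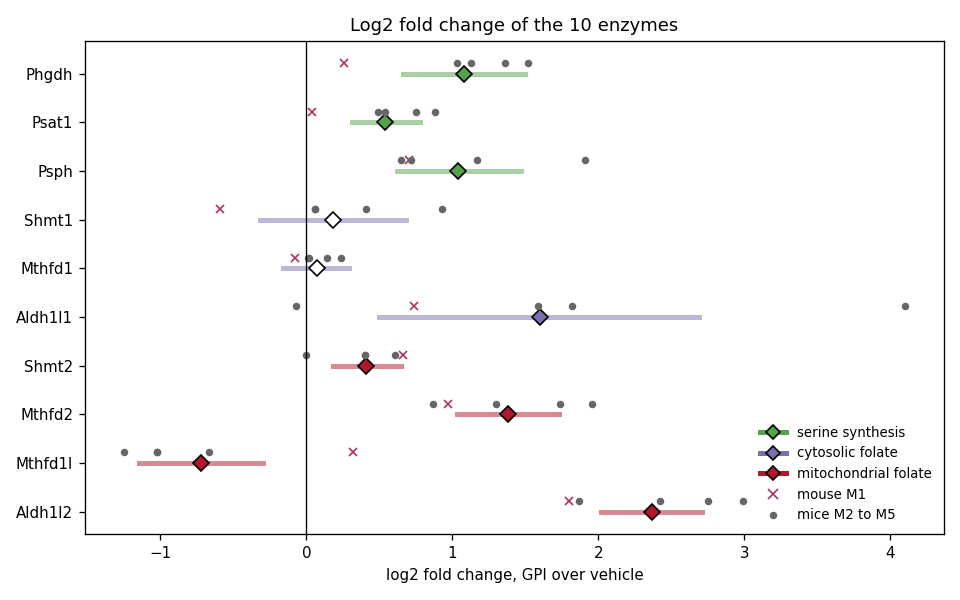
Log2 fold change of GPI over vehicle (horizontal axis) for the 10 enzymes, as fitted by edgeR (diamonds; filled where called) with its 95% interval (bars), and the log2 ratio in each mouse above it (crosses, M1; dots, M2 to M5). The mitochondrial enzymes span -0.72 to 2.37, and the M1 ratio of Mthfd1l is the only one of its gene above 0.

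The set of enzymes in mitochondria and the set in the cytosol were then compared within each mouse, as a description with no test. The mean log2 ratio of the 4 mitochondrial genes was 0.94, 0.67, 0.97, 1.16 and 0.53 in mice M1 to M5 (mean 0.86 ± 0.25, SD, n = 5). That of the 3 cytosolic genes was 0.02, 0.00, 0.96, 1.47 and 0.67 (mean 0.62 ± 0.63, SD, n = 5), and that of the serine synthesis genes was 0.33, 1.06, 0.93, 1.34 and 0.73 (mean 0.88 ± 0.38, SD, n = 5). Mitochondrial less cytosolic, the difference was 0.91, 0.67, 0.01, -0.30 and -0.14, a mean of 0.23 ± 0.53 (SD, n = 5). This mean was smaller than its spread between mice. The genes within each set were unlike: Aldh1l1, with 2 normalized counts in the vehicle-treated testis of mouse M4, had a log2 ratio of 4.10 there, and Mthfd1l was lower in 4 of 5 mice. Without Aldh1l1 and Aldh1l2 the mean difference was 0.23. The next 3 alternatives were chosen after the values were seen. Without Aldh1l1 alone the difference was 1.27, 0.64, 0.44, 1.01 and 0.32 (mean 0.74 ± 0.40, SD, n = 5), and without Mthfd1l alone its mean was 0.76 ± 0.42 (SD, n = 5). For the summed per-length levels of each set, where abundant genes weigh most, the log2 ratio was 0.92, 0.63, 1.13, 1.26 and 0.65 for mitochondria and -0.12, 0.01, 0.41, 0.43 and 0.24 for the cytosol, a mean difference of 0.72 ± 0.24 (SD, n = 5). In each of these 3 the difference was above 0 in 5 of 5 mice, against 3 of 5 for the mean over all 7 genes, so the size of the contrast depends on how the genes are weighed. With all 7 genes, the mean difference also moved with single mice. Without mouse M1 it was 0.06, without M2 it was 0.12, and without M4 it was 0.36.

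On a scale per exon length (RPKM, counts scaled by library size and by kilobases of exon), Psat1 had the highest level with vehicle (20.1 ± 1.63, SD, n = 5), followed by Shmt2 (14.1 ± 2.37), Mthfd1 (7.54 ± 1.09), Mthfd2 (5.71 ± 0.568), Mthfd1l (4.87 ± 0.407), Psph (3.87 ± 0.621), Phgdh (3.14 ± 0.537), Aldh1l2 (2.98 ± 0.646), Shmt1 (1.91 ± 0.346) and Aldh1l1 (0.436 ± 0.269). From Mthfd2 to Aldh1l2, the range of mean ± SD of each gene overlapped that of the next, and the other ranges were apart. With GPI the order was Psat1 (29.5 ± 4.75, SD, n = 5), Shmt2 (18.7 ± 1.86), Aldh1l2 (15.6 ± 3.93), Mthfd2 (15.2 ± 3.96), Psph (8.11 ± 2.11), Mthfd1 (7.90 ± 1.13), Phgdh (6.66 ± 1.13), Mthfd1l (3.22 ± 1.85), Shmt1 (2.17 ± 0.464) and Aldh1l1 (1.26 ± 0.411). Here the neighbours with overlapping ranges were Shmt2, Aldh1l2 and Mthfd2, then Psph, Mthfd1 and Phgdh, then Mthfd1l and Shmt1. Aldh1l2 moved from place 8 to place 3, and Mthfd1l from place 5 to place 8. Summed over the genes of each set, the RPKM level went from 27.1 ± 2 with vehicle to 44.2 ± 7.42 with GPI for serine synthesis, from 27.7 ± 2.12 to 52.7 ± 8.27 for the mitochondrial set and from 9.89 ± 1.3 to 11.3 ± 1.39 for the cytosolic set (SD, n = 5 each). Aldh1l2 made up 8.26% to 15.3% of the mitochondrial sum in vehicle-treated testes and 27% to 34.9% in GPI-treated testes.

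Ratios of a mitochondrial gene to its cytosolic counterpart, each on the RPKM scale, showed which steps shifted. Mthfd2 over Mthfd1 was 0.842, 0.585, 0.678, 0.798 and 0.95 with vehicle in mice M1 to M5 and 1.76, 1.44, 2.08, 2.66 and 1.72 with GPI. It was below 1 in every vehicle-treated testis and above 1 in every GPI-treated testis. Mthfd1l over Mthfd1 was 0.741, 0.544, 0.635, 0.635 and 0.709 with vehicle and 0.98, 0.265, 0.239, 0.334 and 0.344 with GPI, lower in mice M2 to M5 and higher in M1. Dehydrogenase and synthetase, successive steps of the mitochondrial branch, thus went apart in those 4 mice. Shmt2 over Shmt1 had a median of 7.22 with vehicle and 8.22 with GPI, and was higher in 2 of 5 mice. Aldh1l2 over Aldh1l1 had a median of 7.48 with vehicle and 14.9 with GPI, higher in 4 of 5 mice. The exception was M4, where the vehicle ratio of 45.8 had 2 normalized counts of Aldh1l1 below the line.

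**Figure D3:**
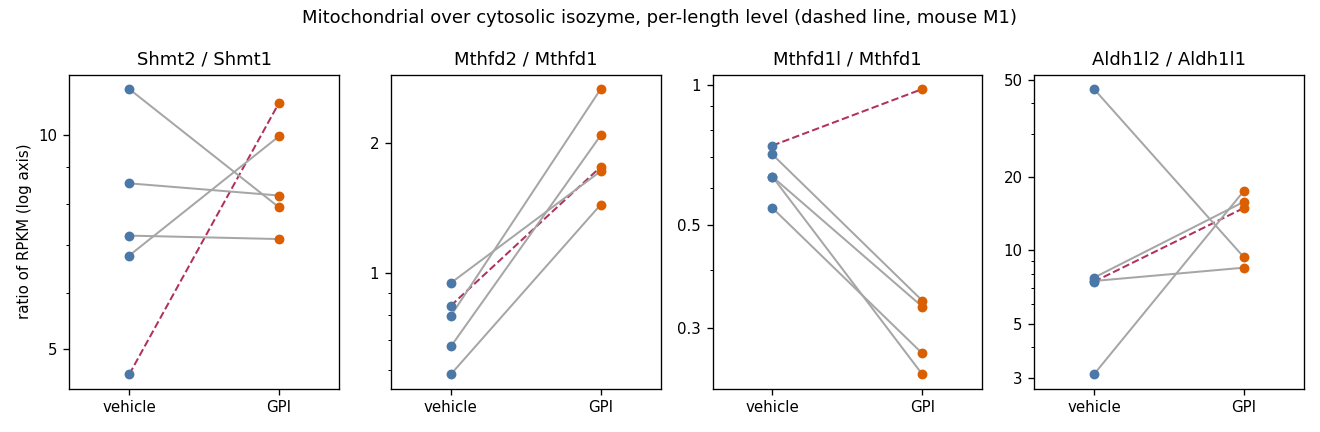
Ratio of RPKM levels of a mitochondrial gene over its cytosolic counterpart (log axis) in vehicle-treated (blue) and GPI-treated (orange) testes, each line 1 mouse and the dashed line M1. Mthfd2 over Mthfd1 rises in all 5 mice, from a median of 0.798 to 1.76, whereas Mthfd1l over Mthfd1 goes from 0.635 to 0.334.

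Other genes of the pathway were read from lists with 42 genes, of which 36 were tested and 8 called by edgeR, each of them higher with GPI. That is 22.2% of those tested, a share close to the 22.9% called among all genes, of which 11.1% were higher and 11.9% lower. Without mouse M3 the number called was 4. The median log2 fold change was 0.44 for folate uptake, retention and reduction, 0.24 for the methionine cycle and transsulfuration, 0.06 for thymidylate and purine synthesis, 0.00 for the other mitochondrial genes, -0.05 for serine and glycine transport and -0.29 for glycine cleavage, beside 0.02 for all tested genes. Of the genes for folate uptake, Folr1, a folate receptor, was higher, with a log2 fold change of 1.07 (SE 0.22, edgeR adjusted p = 0.00244; higher in 5 of 5 mice). Slc19a1, the reduced folate carrier, missed the threshold (log2 fold change 0.61, edgeR adjusted p = 0.0535; higher in 4 of 5 mice). It passed with no replicate block (edgeR adjusted p = 0.0287), with no low-count filter (0.0401) and without mouse M5 (0.0214), and the highest adjusted p of its alternatives was 0.199.

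Among genes that carry serine and glycine across membranes, 2 of 6 tested were higher. Slc1a4, a carrier of serine and other neutral amino acids, had 215 ± 22.6 normalized counts with vehicle and 484 ± 75 with GPI (SD, n = 5), without overlap, and a log2 fold change of 1.16 (edgeR adjusted p = 2.28e-05; 5 of 5 mice). Slc6a9, a glycine transporter that overlaps Ccdc24 on the other strand, had 90.2 ± 16.1 and 171 ± 38.4 (SD, n = 5), without overlap, and a log2 fold change of 0.91 (edgeR adjusted p = 0.00249; 5 of 5 mice). Sfxn3, of the mitochondrial serine carriers, had a log2 fold change of -0.32 and was not called (edgeR adjusted p = 0.0947). Without mouse M1 it was -0.47 (adjusted p = 0.011), and the highest adjusted p of its alternatives was 0.316.

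The methionine cycle and transsulfuration list had 3 of 6 tested genes higher. Cth, the enzyme that makes cysteine from cystathionine, had 26.1 ± 12.6 normalized counts with vehicle and 87.3 ± 32.6 with GPI (SD, n = 5), without overlap, and a log2 fold change of 1.73 (SE 0.34, edgeR adjusted p = 0.00183; 5 of 5 mice). Ahcy, which hydrolyses adenosylhomocysteine, had 0.50 (edgeR adjusted p = 0.0178; 5 of 5 mice), and Mat2a, which makes the methyl donor S-adenosylmethionine and overlaps Particl on the other strand, had 0.23 (edgeR adjusted p = 0.0249; 5 of 5 mice). The call of Ahcy was lost without M2 (0.37, adjusted p = 0.0512) or M3 (0.52, adjusted p = 0.0528), its edgeR, DESeq2 and limma adjusted p values starting at 0.0108. That of Mat2a was lost with total counts in place of TMM (0.18, edgeR adjusted p = 0.0714) and without M2, M3, M4 or M5 (0.21 to 0.24), its adjusted p running from 0.0205 to 0.0876 over edgeR, DESeq2 and limma-voom. Mtr, methionine synthase, had 0.05 and was not called (edgeR adjusted p = 0.782).

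Of the 4 glycine cleavage genes, Dld, a subunit shared with other dehydrogenase complexes, was higher (log2 fold change 0.25, edgeR adjusted p = 0.0111; 5 of 5 mice), a call lost without mouse M3 (0.24, adjusted p = 0.0576, the highest of its alternatives, with 0.0062 the lowest). Gldc, the glycine decarboxylase, had -0.89 (edgeR adjusted p = 0.129) and Amt, the aminomethyltransferase, -0.70 (edgeR adjusted p = 0.222), each lower in 4 of 5 mice and neither called. For thymidylate and purine synthesis, which use the one-carbon units, 0 of 7 genes were called by edgeR, 0 by DESeq2 and 1, Gart, by limma-voom, and 1 had an unadjusted edgeR p under 0.05. Their log2 fold changes were -0.06 for Tyms, thymidylate synthase, 0.30 for Gart (edgeR adjusted p = 0.0505; higher in 5 of 5 mice), 0.19 for Pfas and 0.11 for Adsl. Gart also passed without mouse M2 (0.36, edgeR adjusted p = 0.0285), and the highest adjusted p of its alternatives was 0.198. The remaining mitochondrial one-carbon genes had 0 of 2 tested called by edgeR, by DESeq2 and by limma-voom, and 0 at an unadjusted p under 0.05: Mtfmt, which formylates the initiator tRNA, had 0.14 and Sardh, sarcosine dehydrogenase, -0.14.

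**Figure D4:**
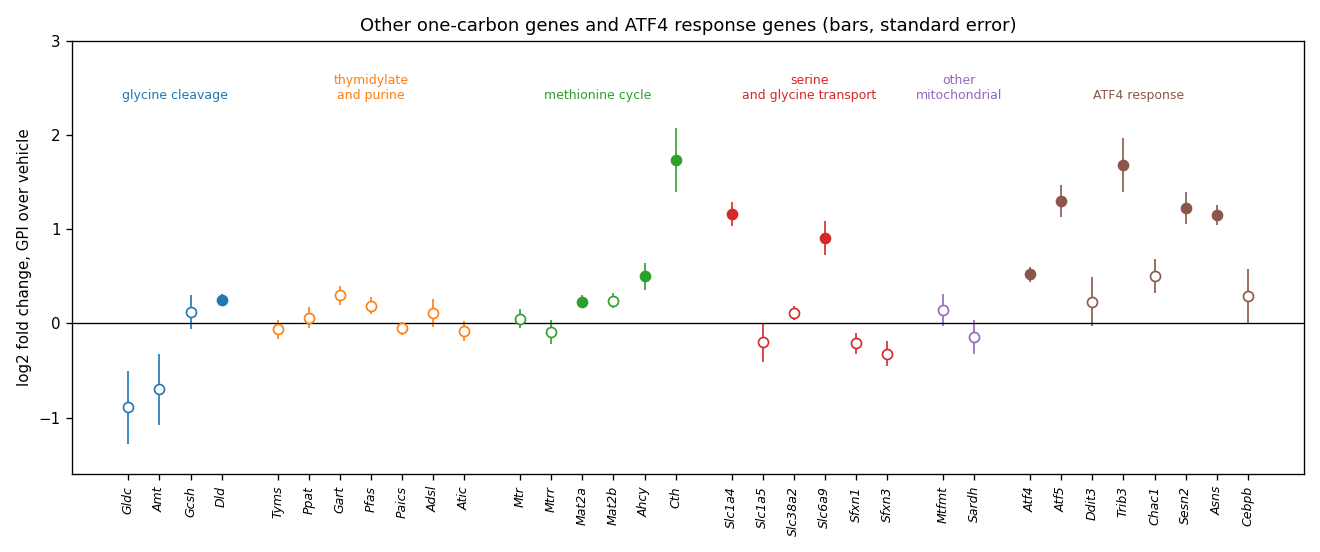
Log2 fold change of GPI over vehicle (vertical axis) with its standard error (bars) for the tested genes of glycine cleavage, thymidylate and purine synthesis, the methionine cycle, serine and glycine transport, other mitochondrial steps and the ATF4 response, filled where edgeR called the gene at an adjusted p under 0.05. Filled points all lie above 0, from 0.23 for Mat2a to 1.73 for Cth, and 5 of 8 ATF4 response genes are filled.

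Genes of the ATF4 response were read beside the enzymes: 5 of 8 were higher with GPI. Atf4 itself had 1330 ± 106 normalized counts with vehicle and 1910 ± 188 with GPI (SD, n = 5), without overlap, and a log2 fold change of 0.52 (SE 0.08, edgeR adjusted p = 0.000441; 5 of 5 mice). Asns, asparagine synthetase, rose by 1.15 (SE 0.11, edgeR adjusted p = 3.44e-06; 5 of 5 mice), from 420 ± 73.6 to 931 ± 168 normalized counts (SD, n = 5). Atf5, a related factor whose gene overlaps Nup62 and Il4i1b on the other strand, had 1.30 (edgeR adjusted p = 6.63e-05), Sesn2, a stress-induced sensor of leucine, 1.22 (edgeR adjusted p = 0.00011) and Trib3, a pseudokinase that was named after its values were seen, 1.68 (edgeR adjusted p = 0.000671), each higher in 5 of 5 mice. Ddit3, Chac1 and Cebpb, also named after their values were seen, were not called by edgeR, with log2 fold changes of 0.23, 0.50 and 0.29. Of the 8 genes, DESeq2 called 5 and limma-voom 6. The median of the list was 0.83. Whether ATF4 acts on the enzymes was not tested.

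The letters TGATGNAA, the core of an amino acid response element bound by ATF4, were searched on both strands in RefSeq promoter windows of GRCm38.p6 (mm10), from 250 bases before to 50 after the start. They were in 3.97% of 32851 windows. Of the 10 enzymes 9 had a window, Aldh1l2 being the one without, and 0 of these 9 held the letters, which says only that they are not in these stretches. Of the ATF4 response list 3 of 8 held them. Slc1a4, looked up by name, also held them, but matches in the other pathway genes were not counted. The sites of Asns, Slc1a4, Chac1 and Trib3 are shown 5′ to 3′ on the strand of the gene, with the matched letters in capitals. These are genes that were set beside the enzymes above. The site of Asns lies at chr6:7693215-7693242, upstream of the start, and that of Slc1a4 at chr11:20332700-20332727, across the start, both genes on the minus strand. That of Chac1 lies at chr2:119351039-119351066 on the plus strand, upstream, and that of Trib3 at chr2:152344029-152344056 on the minus strand, just after the start.
Asns: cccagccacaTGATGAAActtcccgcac
Slc1a4: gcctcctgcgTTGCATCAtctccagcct
Chac1: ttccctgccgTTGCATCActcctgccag
Trib3: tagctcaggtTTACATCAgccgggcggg

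Mthfd2 and Mthfd1l, the successive mitochondrial steps that went apart, are shown with the 120 bases upstream of their starts, 5′ to 3′ on the strand of the gene, at chr6:83317605-83317724 (minus strand) and chr10:3972955-3973074 (plus strand) of GRCm38.p6. Capitals mark CCAAT, the CCAAT box, and GGGCGG, the GC box, on either strand.
Mthfd2: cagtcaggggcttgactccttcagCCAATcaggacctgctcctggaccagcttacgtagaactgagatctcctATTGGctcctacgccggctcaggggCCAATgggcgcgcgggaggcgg
Mthfd1l: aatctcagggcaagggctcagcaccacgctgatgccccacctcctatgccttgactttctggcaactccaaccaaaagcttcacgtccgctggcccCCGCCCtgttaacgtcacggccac
The stretch of Mthfd2 held 3 CCAAT boxes and 0 GC boxes, and that of Mthfd1l held 0 CCAAT boxes and 1 GC box. Their GC contents were close, 62.5% and 60.0%. In the full windows, CCAAT was in 37.4% of all promoters and in 7 of the 9 enzymes with a window, and GGGCGG was in 35.7% and in 6 of 9. These matches describe the letters and say nothing of what binds there.

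The gene most like each enzyme over the 10 libraries, by Pearson correlation of log2 scaled counts among tested genes outside the 10, was Serpinb9 for Phgdh (r = 0.975), Dbt for Psat1 (0.976), Tmem164 for Psph (0.966), Tspan11 for Shmt2 (0.97), Inppl1 for Mthfd2 (0.985) and Cxadr for Aldh1l2 (0.986). For the others it was Txnip for Mthfd1l (0.985), Mpv17 for Aldh1l1 (0.93), Gbgt1 for Shmt1 (0.914) and Mark3 for Mthfd1 (0.937). All 10 points of each correlation share the difference between treatments, and each partner is the highest of many genes, so the values are a description.

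The testes also differed in the RNA levels of cell type markers, which were read from lists. Of 6 tested germ cell markers 4 were lower, among them Dazl (log2 fold change -4.62, edgeR adjusted p = 5.6e-07; 5 of 5 mice), Dppa3 (-5.20), Sall4 (-4.89) and Ddx4 (-2.72). The summed level of the list was 1697, 2847, 2083, 2726 and 1509 normalized counts with vehicle and 911, 727, 763, 968 and 936 with GPI. Its most abundant gene was Kit, which somatic cells also express and which was not called, and Pou5f1 was at 0 in 3 of 5 GPI-treated testes, with at most 2 counts in the others. Nanos3 was at 0 in 1 GPI-treated testis.

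Endothelial markers fell in 7 of 7, among them Pecam1 (-4.16, edgeR adjusted p = 1.07e-09; 5 of 5 mice), Flt1 (-5.18) and the most abundant, Cdh5 (-3.63), with sums of 7258, 7571, 6809, 7970 and 7015 with vehicle and 788, 948, 649, 520 and 678 with GPI. Of 6 macrophage markers 5 were lower, including Csf1r (-2.22), C1qa (-3.78) and C1qb (-1.91), with sums of 640, 431, 489, 464 and 394 with vehicle and 289, 229, 218, 126 and 147 with GPI. C1qa was at 0 in 1 GPI-treated testis, and Cd68 was the most abundant. The erythroid markers Slc4a1 (-4.80) and Alas2 (-0.75) were lower, and the list had sums of 1639, 1990, 3481, 3027 and 2702 with vehicle and 1702, 891, 851, 983 and 2220 with GPI. Hbb-y was the most abundant.

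Fetal Leydig markers were higher in 5 of 5 tested, among them Cyp17a1 (3.90, edgeR adjusted p = 5.91e-07; 5 of 5 mice), Cyp11a1 (2.90) and Nr5a1 (1.11), with Hsd3b1 the most abundant and sums of 1463, 3035, 4247, 2211 and 5604 with vehicle and 10099, 10636, 16332, 18657 and 13579 with GPI. Insl3, not tested, was at 0 in 2 testes of each treatment. Of 8 Sertoli markers 6 were higher, including Sox9 (0.59), Sox8 (1.43) and Dhh (0.92), with Aard the most abundant and sums of 2925, 4277, 3245, 4163 and 4529 with vehicle and 3292, 6170, 6284, 7836 and 5951 with GPI. Of 6 interstitial markers 2 were higher, Maf (0.49) and Pdgfra (0.33), and Tcf21 was lower (-0.30), with Pdgfra the most abundant and sums of 16806, 17849, 18252, 16171 and 17752 with vehicle and 18251, 19666, 17602, 16614 and 20191 with GPI. The call of Tcf21 was lost without M2 (-0.27, edgeR adjusted p = 0.0586), M3 (-0.26, adjusted p = 0.0942, the highest of its alternatives, with 0.00739 the lowest) or M4 (-0.29, adjusted p = 0.0743). Nr2f2 had -0.18 and passed only with total counts in place of TMM (-0.23, edgeR adjusted p = 0.0441; up to 0.293 over its alternatives). Cx3cr1, Cd68, Hbb-y, Hsd3b1 and Star, of the macrophage, erythroid and Leydig lists, were named after their values were seen. Of 8 proliferation genes, Mki67 was lower (-0.40, edgeR adjusted p = 0.00142; 5 of 5 mice), and Top2a (-0.11) and Ccnb1 (-0.27) were not called. The part of these differences in cell type markers in the levels of the enzymes was not tested.

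**Figure D5:**
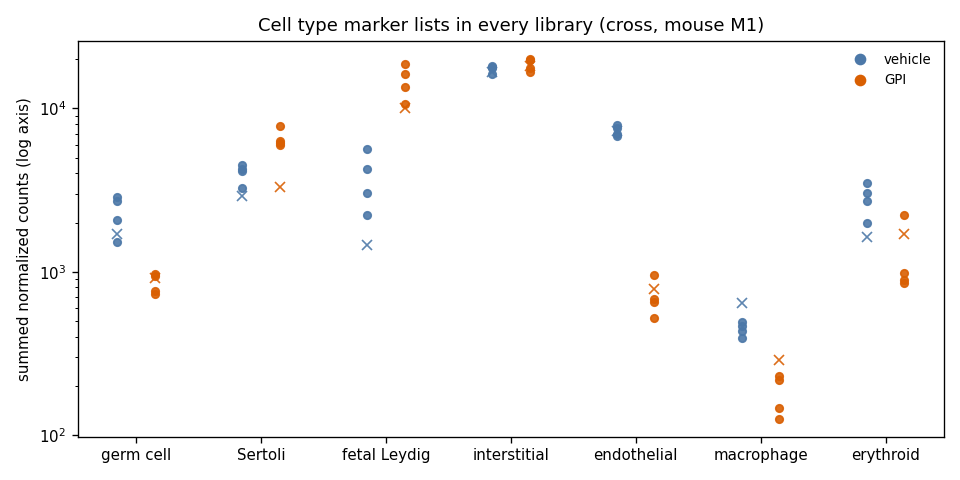
Summed normalized counts (log axis) of 7 cell type marker lists in every vehicle-treated (blue) and GPI-treated (orange) testis, with crosses for mouse M1. The endothelial sums lie between 6809 and 7970 with vehicle and between 520 and 948 with GPI, and the fetal Leydig sums between 1463 and 5604 and between 10099 and 18657.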

How the data were processed

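Raw counts for 24470 entries were used as the authors deposited them. By the submitters' notes, reads were aligned to mm10 by STAR 2.5 and assigned to genes by featureCounts of Subread 1.5.0-p1; by the methods of the paper, genes were those of RefSeq Curated and the strand was ignored. The table had 0 value columns besides these counts. Libraries came from amplified cDNA with no molecular identifiers, and counts are not independent molecules; the spread among mice set the precision. The Ppp1r3c experiment of the study was not analysed here.

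Depth ran from 10203679 to 15635322 counts. Within a treatment no library repeated another: over genes with at least 100 counts, pairs had a chi-square over its degrees of freedom of 6.42 to 27.81. It was 21.74 to 27.81 for pairs with the GPI library of M1 and 7.48 to 11.0 for the other GPI pairs. Vehicle pairs had 6.42 to 21.18. filterByExpr, at a minimum count of 10 and a total of 15, kept 13941 genes for testing; 10529 were set aside. Counts were scaled by TMM (factors 1.003 to 1.039 with vehicle, 0.951 to 1.003 with GPI) and tested with edgeR's quasi-likelihood test with mouse and treatment in the design, Benjamini-Hochberg adjustment and an FDR of 0.05. Ratios in single mice used log2 scaled counts with a prior count of 2. Standard errors are the log2 fold change over the square root of F. Pairing comes from the labels, since both gonads of a pair were from 1 embryo; deviations from the treatment mean had correlations of -0.0398 to 0.155 within a mouse (mean 0.06) and a mean of -0.0147 between mice.

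RPKM used the union of exons of GENCODE M21 transcripts with a RefSeq match, found for 10 of 10 enzymes. Promoter windows came from RefSeq (GRCm38.p6), and 9 of 10 enzymes matched by symbol. The members and lists were chosen with earlier results of these data known. Genes named one by one were the 10 enzymes, the first gene and the 3 tested genes with the smallest p of each other list, and the gene most correlated with each enzyme; others are marked in the text. The fit was repeated by limma-voom and by DESeq2, with the mouse dropped from the design, with scaling by total counts or by DESeq2 size factors, with a filter of 10 counts in all libraries or none, and with each mouse left out; for the compartments also a prior count of 0.5 or 5, the enzymes left out by name, and summed RPKM. The procedure was tested on simulated data. Fits ran in edgeR 4.0.16, DESeq2 1.42.0 and limma 3.58.1 under R 4.3.3, and tables and figures in pandas 2.3.3, matplotlib 3.10.9 and numpy 2.4.6 under Python 3.11.15.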

Additional observations from a re-analysis of the deposited data

Results flagged for a closer look

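In 20 groups of 5 testes, 1 for each enzyme and treatment, 2 single values stood far from the others of their group, both of Mthfd1l; chance alone marks about 1 in 20 groups. With GPI, the testis of mouse M1 had 342 normalized counts of Mthfd1l and the next highest 137, a gap of 0.882 of the whole range (critical value 0.71). With vehicle, the testis of mouse M4 had 219 and the next lowest 260, a gap of 0.748 of the range.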

How the results depend on the processing

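Of the 8 called enzymes, 5 (Phgdh, Psat1, Psph, Mthfd2 and Aldh1l2) kept their direction and their call in all 12 alternatives; the losses of Aldh1l1, Shmt2 and Mthfd1l are given with their values above, and Aldh1l1 could not be fitted with at least 10 counts in every library. The number of enzymes called lower was 0 without the replicate block and 0 to 1 with a mouse left out, and that called higher was 5 to 7 with a mouse left out. Without the replicate block, which pairs the gonads of a mouse, 3108 genes were called in all, and Mthfd1l was the only enzyme whose call changed. With a mouse left out, the genes called higher numbered 969 to 1430, the one-carbon list genes called 4 to 9, and the compartment difference was 0.06 to 0.36; with a prior count of 0.5 or 5 it was 0.17 or 0.3, and in alternatives chosen after seeing the data it was 0.74 without Aldh1l1, 0.76 without Mthfd1l and 0.72 for summed levels. Shmt1 ran from -0.03 to 0.35, Tyms from -0.13 to 0.01 and Mtr from -0.01 to 0.13 with a mouse left out, and Mtr was at 0 with total counts. The cause of these changes was not tested. Of 49 named genes outside the 10, 38 kept direction and call in each alternative.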

Other observations

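In Mthfd1l, a called enzyme, mouse M1 had a log2 ratio of 0.32 and the other mice -1.25 to -0.67, and M1 also had the opposite sign in the uncalled Shmt1 (-0.59) and Mthfd1 (-0.08). A few other genes, chosen after their values were seen and given with no test, were read in the same libraries. Of 12 genes known to respond to low oxygen, 10 were higher in the GPI-treated testis of M1 than in every vehicle-treated testis, and 11 were lower in each of the other 4 GPI-treated testes than in every vehicle-treated testis. Among all 13941 tested genes, 24.3% were higher in that testis of M1 in the same way, and 11.4% were lower in the other 4. Both held for 86 genes, 0.617% of those tested. Vegfa had 4975, 5144, 4256, 3698 and 4873 normalized counts with vehicle in mice M1 to M5 and 7539, 2217, 1521, 1413 and 1719 with GPI. Pdk1, a kinase that restrains pyruvate dehydrogenase, had 1073, 826, 731, 752 and 968 with vehicle and 1542, 337, 209, 242 and 304 with GPI. Egln3 had 467, 615, 473, 510 and 477 with vehicle and 645, 80, 48, 59 and 74 with GPI. The exceptions in M1 were Ankrd37, with 98 in the GPI-treated testis and up to 118 with vehicle, and Adm, with 909 and up to 1453. The exception in the other mice was Car9, with 31, 24, 10, 24 and 35 with vehicle and 53, 24, 26, 20 and 9 with GPI. Txnip and Arrdc4, known to respond to glucose, were also higher in M1 than in every vehicle-treated testis: Txnip, the gene most correlated with Mthfd1l, had 898, 868, 906, 736 and 941 with vehicle and 1177, 363, 241, 296 and 374 with GPI. In M1, Aldh1l2 and Mthfd2 were nevertheless above every vehicle value. What sets M1 apart was not tested.

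Neighbouring amino acid genes, also chosen after their values were seen, moved in both directions. Gpt2, a mitochondrial alanine aminotransferase, had 234 ± 44.6 normalized counts with vehicle and 525 ± 79.2 with GPI (SD, n = 5), and Got1, the cytosolic aspartate aminotransferase, 388 ± 53.1 and 773 ± 123 (SD, n = 5), both without overlap between groups. Aldh18a1, which starts proline synthesis, had 245 ± 31.6 and 403 ± 73.3, and Ass1, argininosuccinate synthase, 29.7 ± 7.98 and 104 ± 16.6 (SD, n = 5 each), again without overlap. Glud1, glutamate dehydrogenase, lay on the other side, with 3240 ± 233 with vehicle and 2150 ± 215 with GPI (SD, n = 5), without overlap.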
